A study of Sus scrofa with 67 samples.

Results

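The endometrium on day 18 of the oestrous cycle was compared with the endometrium on day 15, a step that takes the uterus from the end of the luteal phase into the follicular phase before the next oestrus. All 3 endometrium libraries of day 18 and all 4 of day 15 were used, which is 7 of the 22 endometrium libraries and of the 66 libraries in the table of counts. The study followed the endometrium, ovary and oviduct of pigs on 7 days of the cycle by sequencing poly-A RNA, and day 0 was taken as the first day of oestrous behaviour. Every animal was an untreated crossbred gilt (Landrace × Yorkshire) of similar age that had already passed through normal cycles, and day is the one difference that the labels give. The endometrium was cut free of the muscle layer, which leaves epithelium, glands, stroma, vessels and immune cells in 1 sample, and in such bulk tissue fewer cells of a type and less RNA per cell cannot be told apart. The methods give 3 gilts per day whereas day 15 has 4 libraries, so it is not known whether each library stands for a separate gilt. The test took its spread from all 22 endometrium libraries, each compared with those of its own day, so p-values rest on the libraries of other days as well.

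The corpora lutea of a gilt that is not pregnant are broken down late in the cycle by prostaglandin F released from the endometrium, and progesterone then falls while follicles grow and secrete oestradiol. Progesterone drives the secretory state of the uterine glands and oestradiol drives epithelial growth, oedema and renewal of the surface. The comparison asked which endometrial transcripts moved over this change.

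Total counts of the 7 libraries ranged from 9372976 to 11793142 (median 10917300), and 3 counts corresponded to 0.245 to 0.335 CPM (counts scaled to a common library size with TMM factors). Of 25322 genes in the table, 15341 had enough counts for a test and 9965 of these could be paired with a symbol. No 2 of the 7 libraries were identical. The epithelial markers EPCAM (451 to 1210 CPM) and KRT8 (693 to 1715 CPM), the gland factor FOXA2 (91.2 to 211 CPM) and the stromal filament VIM (598 to 2719 CPM) were present in every library, as was the smooth muscle gene DES at 7.18 to 58.7 CPM. Counts on 13 mitochondrial genes made up 3.23% to 4.74% of the total on day 15 and 4.46% to 6.16% on day 18, and the part of this shift in the results was not tested.

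A library of each day stood apart. In a principal component analysis of the 22 endometrium libraries, library 2 of day 15 lay at 39.1 on the first component, inside the range of day 12 (19.3 to 48.2), whereas the other 3 libraries of day 15 lay between -59.4 and -39.3. Its mean Pearson's r across genes was 0.973 with the libraries of day 12 and 0.916 with those of its own day. Library 1 of day 18 lay at -40.6 on the second component, near the libraries of day 15 (-52.3 to -33.9), whereas libraries 2 and 3 of day 18 lay at 8.84 and 4.45, next to day 0 (16.4 to 43.3). Libraries 2 and 3 of day 18 also had a mean r of 0.970 and 0.968 with day 0. Counts of called genes are therefore given with and without library 2 of day 15 and library 1 of day 18. These 2 libraries were picked by the levels of their own genes. Library 1 was the library of day 18 nearest to day 15, so that leaving it out widens the contrast by construction and the larger counts without it are no support for the calls.

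**Figure D1:**
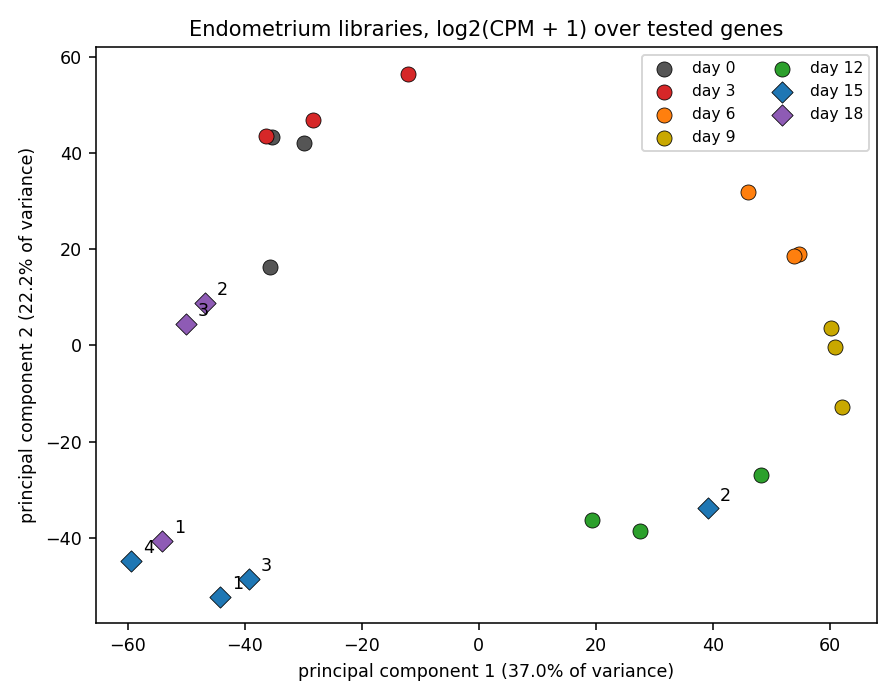
Each point is 1 endometrium library on the first (37.0% of the variance) and second (22.2%) principal components of log2(CPM + 1), coloured by day, with the libraries of days 15 and 18 as numbered diamonds. Library 2 of day 15 lies among those of day 12, and library 1 of day 18 lies among those of day 15.

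In all, 155 genes (1.01% of those tested) were differentially expressed between day 18 and day 15 at an adjusted p under 0.05 in edgeR's quasi-likelihood test, with the spread estimated over all 7 days. In a fit of the 7 libraries of days 15 and 18 alone 0 of 14511 genes were called (1596 had an unadjusted p under 0.05). Of these 155 DEGs, 70 were higher on day 18 (0.456%) and 85 were lower (0.554%), and 108 carried a symbol. The log2 fold change (log2 FC) was at least 1 in absolute size for 113 of them and at least 3 for 17, of which 6 were higher and 11 lower. The median size was 1.60 among the higher DEGs and 1.34 among the lower ones, against a median log2 FC of -0.02 over all genes tested. No library of 1 day overlapped the other day in 66 of the 70 higher and 77 of the 85 lower DEGs, beside 5.7% of all tested genes with day 18 wholly above and 5.33% with day 18 wholly below, and the call used the same values. Without the 2 libraries that stood apart, 967 genes were called (6.22% of 15549), 388 higher (2.5%) and 579 lower (3.72%), and 141 of the 155 were among them. The count also turned on single libraries. It was 69 without library 1 of day 15, 20 without library 3 and 476 without library 4 of that day. Without library 2 of day 15 it was 194, and only 95 of the 155 were among them. It was 547, 12 and 0 without libraries 1, 2 and 3 of day 18 (1621 genes had an unadjusted p under 0.05 in the last of these fits).

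Genes are described first by the ratio of their day means, among DEGs with a symbol in which the days did not overlap and no library of the higher day held fewer than 10 counts. Among the largest rises were those of transcripts that were close to absent on day 15. FGF14, an intracellular relative of the fibroblast growth factors that acts on sodium channels, had 0.108, 0.189, 0 and 0.0906 CPM in the libraries of day 15 and 3.69, 7.93 and 14.9 CPM in those of day 18. These were 4 counts against 313, a ratio of 97.1 (exact 95% interval 37.5 to 359, counting error only). AMCF-II, a pig chemokine that draws neutrophils, had 0.325, 0, 0.0942 and 0.272 CPM on day 15 and 5.37, 1.72 and 12.3 CPM on day 18, a ratio of 38.8 (18.5 to 97.7). In both of these genes every library of day 18 lay above every library of day 15. The edgeR adjusted p was 0.0267 for FGF14 and 0.0267 for AMCF-II. TNFRSF11B, the decoy receptor osteoprotegerin, was low as well, with at most 0.471 CPM on day 15 and 1.34 to 3.02 CPM on day 18 (ratio 7.44, interval 3.90 to 15.6; edgeR adjusted p = 0.0487).

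PLAT, the tissue-type plasminogen activator that starts the breakdown of fibrin, was well expressed on both days. Its levels were 108, 45.7, 86.9 and 151 CPM in the libraries of day 15 and 398, 559 and 801 CPM in those of day 18. All libraries of day 18 exceeded the highest of day 15, and the rise was 5.98-fold (log2 FC 2.58 ± 0.48 SE, edgeR adjusted p = 0.0230). PLAT averaged 644 CPM on day 0 and 578 CPM on day 3, and 55.0 to 57.7 CPM on days 6, 9 and 12. SLC38A4, an amino acid transporter, had 3.68, 2.08, 5.56 and 8.97 CPM on day 15 and 14.6 to 36.4 CPM on day 18, with no overlap (log2 FC 2.32 ± 0.43 SE, edgeR adjusted p = 0.0230). Its mean was 37.7 CPM on day 0. ZC2HC1C had 17.0 to 46.2 CPM on day 15 and 188, 69.8 and 116 CPM on day 18, highest in the library that lay near day 15 (log2 FC 2.07 ± 0.41 SE, edgeR adjusted p = 0.0267).

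The other genes of this group were lower in level. TFF3, a trefoil peptide of mucous surfaces, had 0.650, 0, 0.471 and 0.634 CPM on day 15 and 1.57, 2.45 and 3.19 CPM on day 18 (log2 FC 2.44 ± 0.56 SE, edgeR adjusted p = 0.0468). HTR7, a serotonin receptor, had 0.996 to 1.23 CPM on day 15, and on day 18 had 1.45 CPM in library 1 against 8.50 and 7.92 CPM in libraries 2 and 3. The day 18 libraries of HTR7 thus split, with library 1 only just above day 15 (log2 FC 2.36 ± 0.47 SE, edgeR adjusted p = 0.0267). PPP2R2B, a regulatory subunit of a serine and threonine phosphatase, rose from 0.542 to 1.32 CPM on day 15 to 2.62 to 6.29 CPM on day 18 (edgeR adjusted p = 0.0230). IRX3, a homeobox transcription factor, had 1.23 to 2.72 CPM on day 15 and 15.4, 3.35 and 6.21 CPM on day 18 (log2 FC 2.07 ± 0.47 SE, edgeR adjusted p = 0.0468). The highest value of IRX3 was that of library 1 of day 18, and without this library and library 2 of day 15 its log2 FC was 1.11 (edgeR adjusted p = 0.167). SEZ6L2, a membrane protein, had at most 0.975 CPM on day 15 and 2.01 to 2.94 CPM on day 18 (edgeR adjusted p = 0.0487). Of the 11 largest rises described, 10 were called without those 2 libraries, the exception being IRX3. When each library was left out in turn, the number of the 7 fits that called a gene ran from 1 for IRX3 to 5 for PPP2R2B.

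**Figure D2:**
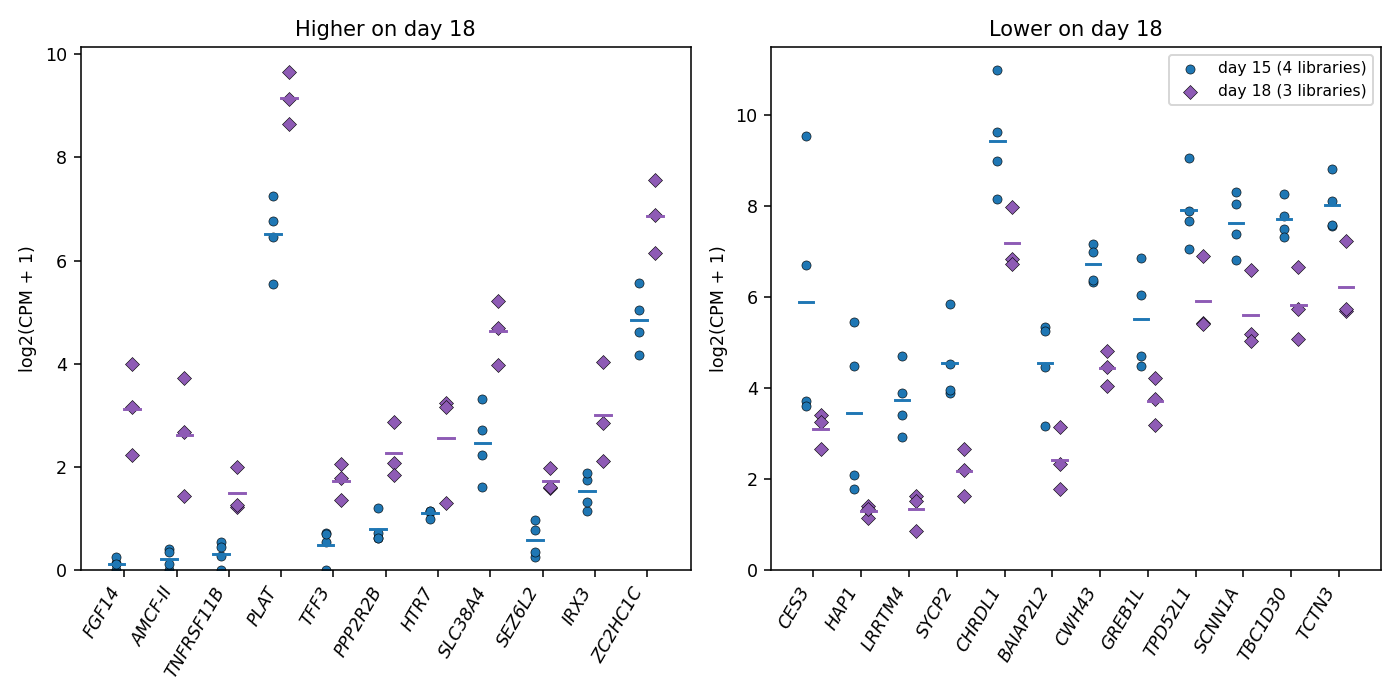
Level of 11 genes with large rises and the 12 with the largest falls among DEGs with a symbol in which the days did not overlap and no library of the higher day had fewer than 10 counts, 1 point for each library of day 15 and day 18, on a log2(CPM + 1) axis. The 3 libraries of day 18 lie above all 4 of day 15 for every rise shown and below them for every fall shown.

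Among the falls chosen in the same way, which leaves out genes with fewer than 10 counts in a library of day 15 such as CYP26A1 and OPTC, CES3, a carboxylesterase, had the largest ratio but uneven levels. It had 103, 744, 12.1 and 11.2 CPM in the libraries of day 15 and 9.73, 5.31 and 8.58 CPM in those of day 18. The library near day 12 carried most of the day 15 signal, and libraries 3 and 4 of day 15 lay just above day 18. The log2 FC of CES3 was -4.79 ± 1.09 SE (edgeR adjusted p = 0.0468), and -2.59 without the 2 libraries that stood apart. Carboxylesterases form a family of similar genes, and reads shared among them were not separated. CHRDL1, a secreted antagonist of bone morphogenetic proteins, had 508, 2023, 794 and 284 CPM on day 15 and 253, 114 and 105 CPM on day 18 (log2 FC -2.52 ± 0.55 SE, edgeR adjusted p = 0.0415). With each library left out in turn, its log2 FC ran from -3.05 to -1.74. Library 2 was again the highest of day 15, and the lowest of that day lay just above library 1 of day 18. CWH43, which acts on the lipid of membrane anchors, was more even, with 79.7, 143, 126 and 82.4 CPM on day 15 and 15.7, 27.1 and 21.2 CPM on day 18 (log2 FC -2.34 ± 0.46 SE, edgeR adjusted p = 0.0267).

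SCNN1A, the alpha subunit of the epithelial sodium channel, had 262, 315, 167 and 111 CPM on day 15 and 95.6, 35.5 and 31.9 CPM on day 18. All 3 libraries of day 18 lay below day 15, library 1 by the least (log2 FC -1.98 ± 0.44 SE, edgeR adjusted p = 0.0432). The log2 FC of SCNN1A ran from -2.67 to -1.71 with each library left out in turn. TBC1D30, a regulator of Rab GTPases, had 160 to 308 CPM on day 15 and 99.7, 52.1 and 32.9 CPM on day 18 (log2 FC -1.82 ± 0.32 SE, edgeR adjusted p = 0.0152). TPD52L1 had 131 to 528 CPM and 41.7 to 120 CPM (edgeR adjusted p = 0.0281). TCTN3, a protein at the base of cilia, had 189 to 453 CPM and 50.8 to 150 CPM (edgeR adjusted p = 0.0470). Both pairs of ranges were free of overlap. GREB1L, a relative of the oestrogen-induced gene GREB1 with which it may share reads, had 65.6, 116, 25.1 and 21.4 CPM on day 15 and 17.7, 8.09 and 12.6 CPM on day 18 (log2 FC -2.16 ± 0.50 SE, edgeR adjusted p = 0.0475). With each library left out in turn, the log2 FC of GREB1L ran from -2.46 to -1.55. GREB1 itself had 10.8 to 102 CPM on day 15 and 11.3 to 39.2 CPM on day 18 (log2 FC -0.85 ± 0.58 SE, edgeR adjusted p = 0.501).

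The remaining falls of this group were in genes best known from other tissues. LRRTM4, a leucine-rich repeat protein of synapses, had 6.62 to 25.1 CPM on day 15 and 0.817 to 2.12 CPM on day 18 (log2 FC -3.11 ± 0.61 SE, edgeR adjusted p = 0.0267). SYCP2, of the synaptonemal complex of meiosis, had 14.0 to 56.5 CPM and 2.12 to 5.37 CPM (edgeR adjusted p = 0.0468). BAIAP2L2, a protein that bends the membrane at its protrusions, had 39.6, 37.4, 21.1 and 7.97 CPM on day 15 and at most 7.94 CPM on day 18 (edgeR adjusted p = 0.0304). HAP1, a partner of huntingtin in vesicle transport, had 21.6, 2.46, 43.0 and 3.26 CPM on day 15 and 1.23 to 1.68 CPM on day 18. Its day 15 libraries formed a high and a low pair, with the low pair still above day 18 (log2 FC -3.56 ± 0.82 SE, edgeR adjusted p = 0.0468). The log2 FC of HAP1 ran from -3.92 to -2.60 with each library left out in turn. All 12 of these falls were called without the 2 libraries that stood apart. When each library was left out in turn, each was called in 2 (HAP1, GREB1L, TCTN3 and SCNN1A) to 4 of the 7 fits. Of 46 DEGs described, these and the rises included, 0 were called without library 3 of day 18, 6 without library 2 of day 18 and 5 without library 3 of day 15.

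Further DEGs were picked for their known roles after their values were seen. SFRP1, a secreted antagonist of Wnt ligands, had 6.62 to 17.0 CPM on day 15 and 26.9, 50.0 and 49.2 CPM on day 18 (log2 FC 1.92 ± 0.34 SE, edgeR adjusted p = 0.0174). LRP4, a receptor that also modulates Wnt signalling, had at most 29.9 CPM and 49.5 to 74.9 CPM (log2 FC 1.75 ± 0.33 SE, edgeR adjusted p = 0.0230). SMO, which passes on hedgehog signals, rose less, from 31.2 to 38.3 CPM to 42.8 to 73.1 CPM (log2 FC 0.83 ± 0.20 SE, edgeR adjusted p = 0.0488). In all 3 genes day 18 lay wholly above day 15. FGFR3, a receptor of fibroblast growth factors, fell from 23.9 to 75.1 CPM to 15.4 to 28.5 CPM, with overlap of the ranges (edgeR adjusted p = 0.0468), and TGFBR3, a co-receptor of the TGF-beta family, fell from 60.3 to 86.5 CPM to 35.4 to 40.5 CPM without overlap (edgeR adjusted p = 0.0267).

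Some DEGs with roles in adhesion and defence, picked in the same way and not a tested group, moved in either direction. VCAM1, to which leukocytes attach, had 63.1, 45.9, 29.1 and 76.4 CPM on day 15 and 148, 121 and 123 CPM on day 18 (log2 FC 1.28 ± 0.25 SE, edgeR adjusted p = 0.0267). VCAM1 averaged 45.1 to 55.6 CPM on each of days 0 to 12, so that day 18 lay above all of these day means. CFI, a protease that limits complement, had 31.7 to 85.1 CPM on day 15 and 101, 212 and 272 CPM on day 18 (edgeR adjusted p = 0.0359). TLR2, a receptor of bacterial lipoproteins, had 3.02 to 5.31 CPM and 8.09 to 10.5 CPM (edgeR adjusted p = 0.0468). TLR8, a receptor of single-stranded RNA, went the other way at low levels, with 0.759, 1.04, 0.848 and 0.362 CPM on day 15 and at most 0.0817 CPM on day 18 (edgeR adjusted p = 0.0468). AFDN, a scaffold protein of cell junctions, was also lower, with 389 to 752 CPM on day 15 and 266 to 376 CPM on day 18 (log2 FC -0.89 ± 0.19 SE, edgeR adjusted p = 0.0359). VCAM1, CFI, TLR2, TLR8 and AFDN did not overlap between the days. MMP17, a membrane-bound metalloproteinase, had at most 0.272 CPM on day 15 and 1.01 to 2.04 CPM on day 18 (edgeR adjusted p = 0.0239).

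Several enzymes and a transporter were picked from the lower DEGs. CYP26A1, which degrades retinoic acid, had 24.3, 41.6, 2.07 and 0.543 CPM on day 15 and 0.447, 0.245 and 0 CPM on day 18, which is around the level of 3 counts (edgeR adjusted p = 0.0475). Its mean was 718 CPM on day 9, 37.6 CPM on day 12 and 0.0933 CPM on day 0. SMOX, which oxidises spermine, had 64.4, 130, 85.0 and 64.8 CPM on day 15 and 36.4, 29.3 and 23.3 CPM on day 18 (log2 FC -1.54 ± 0.23 SE, edgeR adjusted p = 0.00956). ENTPD1, an enzyme that splits extracellular ATP, had 446, 1006, 418 and 356 CPM on day 15 and 304, 152 and 124 CPM on day 18 (edgeR adjusted p = 0.0438). SLC19A2, a thiamine transporter, fell from 59.0 to 74.9 CPM to 29.2 to 37.7 CPM (log2 FC -0.98 ± 0.15 SE, edgeR adjusted p = 0.0110). SMOX, ENTPD1 and SLC19A2 showed no overlap of the days. A4GALT, which makes globosides, fell from 139 to 279 CPM to 80.2 to 119 CPM (edgeR adjusted p = 0.0281), whereas HSD17B7, an enzyme of sterol and oestradiol synthesis, had overlapping ranges of 80.0 to 177 CPM and 35.6 to 86.5 CPM (edgeR adjusted p = 0.0470). OPTC, a small matrix proteoglycan, had 15.8, 112, 4.71 and 0.0906 CPM on day 15 and 0.327 to 1.01 CPM on day 18, so that library 4 of day 15 lay below day 18 (edgeR adjusted p = 0.0488).

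The smallest adjusted p of the comparison belonged to KIF3B, a kinesin motor subunit that carries cargo in cilia and along microtubules. It had 293, 365, 338 and 391 CPM on day 15 and 152, 128 and 133 CPM on day 18 (log2 FC -1.33 ± 0.16 SE, edgeR adjusted p = 0.00259). The libraries of each day were close to each other and the days were well apart. EVPL, a protein of the epithelial envelope, fell from 43.1 to 81.2 CPM to 21.0 to 27.1 CPM (edgeR adjusted p = 0.0114). In the opposite direction, RERG, a small GTPase known to be induced by oestrogen and to restrain growth, had 46.7 to 62.9 CPM on day 15 and 95.6, 186 and 138 CPM on day 18 (log2 FC 1.43 ± 0.29 SE, edgeR adjusted p = 0.0271). In RERG library 1 of day 18 was the lowest of its day and still above day 15.

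The day 18 libraries were divided in the genes of the cell cycle. Of the 25 genes of that list 16 were tested, and 14 of them had a higher level on day 18 at an unadjusted p under 0.05 and 1 a lower level (7.39% and 9.07% of all tested genes), with a median log2 FC of 1.67 against -0.02 over all genes. Of the 16, 0 were called in edgeR, where the adjusted p of these 15 genes lay between 0.0778 and 0.254. By contrast, 8 were called by DESeq2, all higher (1.92% of all genes tested), and 8 in edgeR without the 2 libraries that stood apart, all higher (2.5%). TOP2A, the topoisomerase that untangles replicated DNA, had 8.56, 3.31, 12.1 and 8.88 CPM on day 15 and 6.48, 101 and 58.5 CPM on day 18 (log2 FC 2.75 ± 0.81 SE, edgeR adjusted p = 0.101). MCM2, a subunit of the replicative helicase, had 11.1 to 16.7 CPM on day 15 and 18.1, 58.8 and 37.3 CPM on day 18 (edgeR adjusted p = 0.0778). CDK1, the kinase that drives entry into mitosis, had 0.756 to 2.08 CPM on day 15 and 0.335, 16.0 and 7.84 CPM on day 18 (edgeR adjusted p = 0.127).

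For the 16 cell cycle genes the summed level was 81.0, 75.7, 95.1 and 89.4 CPM in the libraries of day 15 and 79.8, 464 and 262 CPM in those of day 18. Libraries 2 and 3 of day 18 thus lay far above day 15 and library 1 lay within its range. Libraries 2 and 3 of day 18 exceeded every library of day 15 in 15 of the 16 genes, beside 13.3% of all tested genes, and library 1 did so in 2. CDC20, an activator of the ubiquitin ligase that ends mitosis, went the other way, with 5.52 to 6.97 CPM on day 15 and 2.94 to 4.58 CPM on day 18 (edgeR adjusted p = 0.178). Outside the list, the DEG CENPF, a protein of the kinetochore, had the same split, with 0.662 to 3.01 CPM on day 15 and 1.79, 32.9 and 21.0 CPM on day 18 (edgeR adjusted p = 0.0492). SLC34A2, a sodium and phosphate cotransporter, was divided likewise, with 1.52, 15.6, 5.09 and 3.99 CPM on day 15 and 3.47, 247 and 143 CPM on day 18 (log2 FC 4.32 ± 0.99 SE, edgeR adjusted p = 0.0468). With each library left out in turn, its log2 FC ran from 3.49 to 5.19, and 2 of the 7 fits called it.

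**Figure D3:**
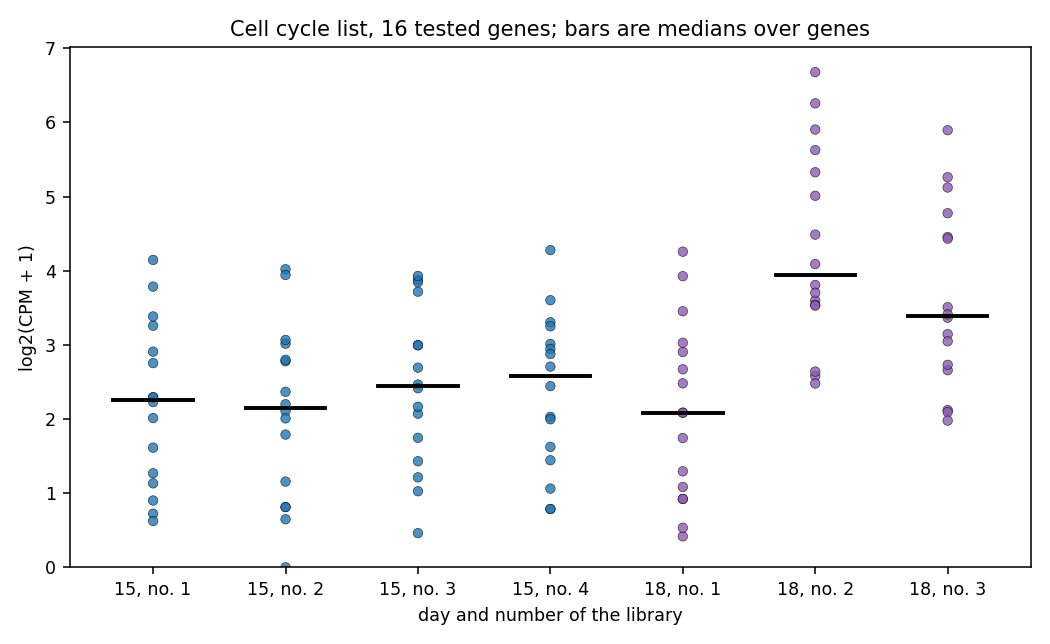
Level of the 16 tested cell cycle genes in each library of day 15 and day 18, 1 point for each gene on a log2(CPM + 1) axis, with the median over genes as a bar. The medians are 2.15 to 2.57 on day 15, 2.08 in library 1 of day 18, and 3.95 and 3.39 in libraries 2 and 3.

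The counts of the other lists are read against the same shares of all genes tested. At an unadjusted p under 0.05 these were 7.39% higher and 9.07% lower, and as DEGs 0.456% and 0.554%. They were 1.92% and 2.95% in DESeq2 (4.87% in either direction), and 2.5% and 3.72% in edgeR without the 2 libraries that stood apart. In the list of steroid hormone and luteolysis receptors 7 of 9 genes were tested and 0 were called by edgeR, 1 having a higher and 2 a lower level on day 18 at an unadjusted p under 0.05 (median log2 FC 0.04, and -0.23 without the 2 libraries that stood apart), and 0 were called by DESeq2. ESR1, the main oestrogen receptor of the uterus, had 284 to 796 CPM on day 15 and 392 to 525 CPM on day 18 (log2 FC 0.04 ± 0.24 SE, edgeR adjusted p = 0.957). PGR, the progesterone receptor, had 16.8 to 24.1 CPM on day 15 and 20.2, 47.2 and 32.9 CPM on day 18 (log2 FC 0.74 ± 0.27 SE, edgeR adjusted p = 0.170). Without the 2 libraries that stood apart the log2 FC of PGR was 1.09 (edgeR adjusted p = 0.0264) and that of ESR1 was 0.57 (edgeR adjusted p = 0.0493), the 2 members called there. OXTR, the oxytocin receptor, had 1.98 to 45.3 CPM on day 15, lowest in library 2, and 90.3, 10.5 and 30.3 CPM on day 18, so that each day spanned a wide range (edgeR adjusted p = 0.583).

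Of the 19 genes of prostaglandin synthesis, transport and reception 13 were tested, with 1 higher and 1 lower at an unadjusted p under 0.05 and 0 called by edgeR or DESeq2 (median log2 FC 0.15, and -0.07 without the 2 libraries that stood apart). PTGS2, the inducible cyclooxygenase, had 1018, 73.3, 430 and 715 CPM on day 15 and 946, 593 and 384 CPM on day 18 (edgeR adjusted p = 0.933). The low value of day 15 was again that of library 2. HPGD, the enzyme that inactivates prostaglandins, had 63.5, 82.8, 5.46 and 12.2 CPM on day 15 and 15.0, 0.490 and 0.980 CPM on day 18 (log2 FC -2.96 ± 0.98 SE, edgeR adjusted p = 0.135). PTGER2, a receptor of prostaglandin E, had 380, 29.0, 538 and 626 CPM on day 15 and 581, 60.3 and 148 CPM on day 18 (edgeR adjusted p = 0.740). Library 2 of day 15 was thus lower than libraries 2 and 3 of day 18, and library 1 of day 18 lay with the other 3 of day 15. Without the 2 libraries that stood apart HPGD (log2 FC -5.17, edgeR adjusted p = 0.0112), PTGER2 (log2 FC -2.30, edgeR adjusted p = 0.00866) and PTGER4 (log2 FC -1.03, edgeR adjusted p = 0.0173) were called, all lower on day 18 (3.72% of all genes in that fit).

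Of the 17 secreted proteins of the luteal uterus 9 were tested and 0 were called by edgeR, with 2 higher at an unadjusted p under 0.05 (median log2 FC 0.25). In DESeq2 2 were called, both higher (1.92% of all genes), and in edgeR without the 2 libraries that stood apart 2, both higher (2.5%). LCN2, an iron-binding lipocalin, had 2.93 to 29.5 CPM on day 15 and 13.0, 79.7 and 144 CPM on day 18 (log2 FC 2.29 ± 0.64 SE, edgeR adjusted p = 0.0856). CTSH, a lysosomal cathepsin, had 60.5 to 208 CPM and 248 to 425 CPM (log2 FC 1.08 ± 0.30 SE, edgeR adjusted p = 0.0847). RBP4, the carrier of retinol, had 9336, 124, 8051 and 8274 CPM on day 15 and 7909, 3046 and 2143 CPM on day 18 (edgeR adjusted p = 0.842). Library 2 of day 15 was by far the lowest of the 7 libraries for RBP4, and library 1 of day 18 was close to the other 3 of day 15.

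All 12 oestrogen-responsive genes found in the table were tested, with 5 higher and 1 lower at an unadjusted p under 0.05 (7.39% and 9.07% of all genes tested), a median log2 FC of 0.25, and TFF3 as the 1 DEG. LTF, the iron-binding lactoferrin, had at most 0.945 CPM on day 15 and 0.559, 9.73 and 11.8 CPM on day 18 (log2 FC 4.32 ± 1.17 SE, edgeR adjusted p = 0.0805). OVGP1, a secreted glycoprotein better known from the oviduct, had 0.975 to 2.92 CPM and 2.91, 9.40 and 11.9 CPM (log2 FC 2.17 ± 0.64 SE, edgeR adjusted p = 0.100). Both followed the split in which library 1 of day 18 stayed within the range of day 15. MYC, a growth-promoting transcription factor, had 229, 24.3, 42.6 and 178 CPM on day 15 and 364, 348 and 313 CPM on day 18, without overlap (edgeR adjusted p = 0.139). Without the 2 libraries that stood apart 4 of the 12 were called, all higher (2.5% of all genes in that fit were called higher), and the median log2 FC was 0.61.

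In the list for extracellular matrix and its remodelling 19 of 21 genes were tested, with 5 higher and 0 lower at an unadjusted p under 0.05 (7.39% and 9.07% of all genes, median log2 FC 0.16). PLAT was the 1 DEG (0.456% higher over all genes), and 2 were called without the 2 libraries that stood apart, both higher (2.5%), with a median log2 FC of 0.34. MMP9, a gelatinase, had 1.04 to 3.11 CPM on day 15 and 1.01, 13.4 and 11.4 CPM on day 18 (log2 FC 2.20 ± 0.68 SE, edgeR adjusted p = 0.114). MMP7, a matrix metalloproteinase of glandular epithelium, had 22.9, 0.567, 37.5 and 447 CPM on day 15 and 146, 1612 and 1478 CPM on day 18 (log2 FC 3.09 ± 1.16 SE, edgeR adjusted p = 0.183). The collagen gene COL3A1 had 7169 to 9612 CPM and 6260 to 9467 CPM (log2 FC -0.07 ± 0.23 SE, edgeR adjusted p = 0.917). Of the 9 tested genes of ion and water transport SCNN1A was the 1 DEG, with 1 higher and 2 lower at an unadjusted p under 0.05 (median log2 FC -0.66). In that list 2 were called without the 2 libraries that stood apart, both lower (3.72%). Among 8 interferon-stimulated genes 0 were called by edgeR and 1 by DESeq2, which was lower, with 1 lower at an unadjusted p under 0.05 (OAS2, log2 FC -1.85 ± 0.62 SE, edgeR adjusted p = 0.141). The median log2 FC of this list was -0.10. It turned to 0.53 without the 2 libraries that stood apart, where 1 member was called higher and 0 lower. Among 6 apoptosis genes 0 were called by edgeR with or without those libraries or by DESeq2, with 1 lower at an unadjusted p under 0.05 (BAD, log2 FC -0.39).

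**Figure D4:**
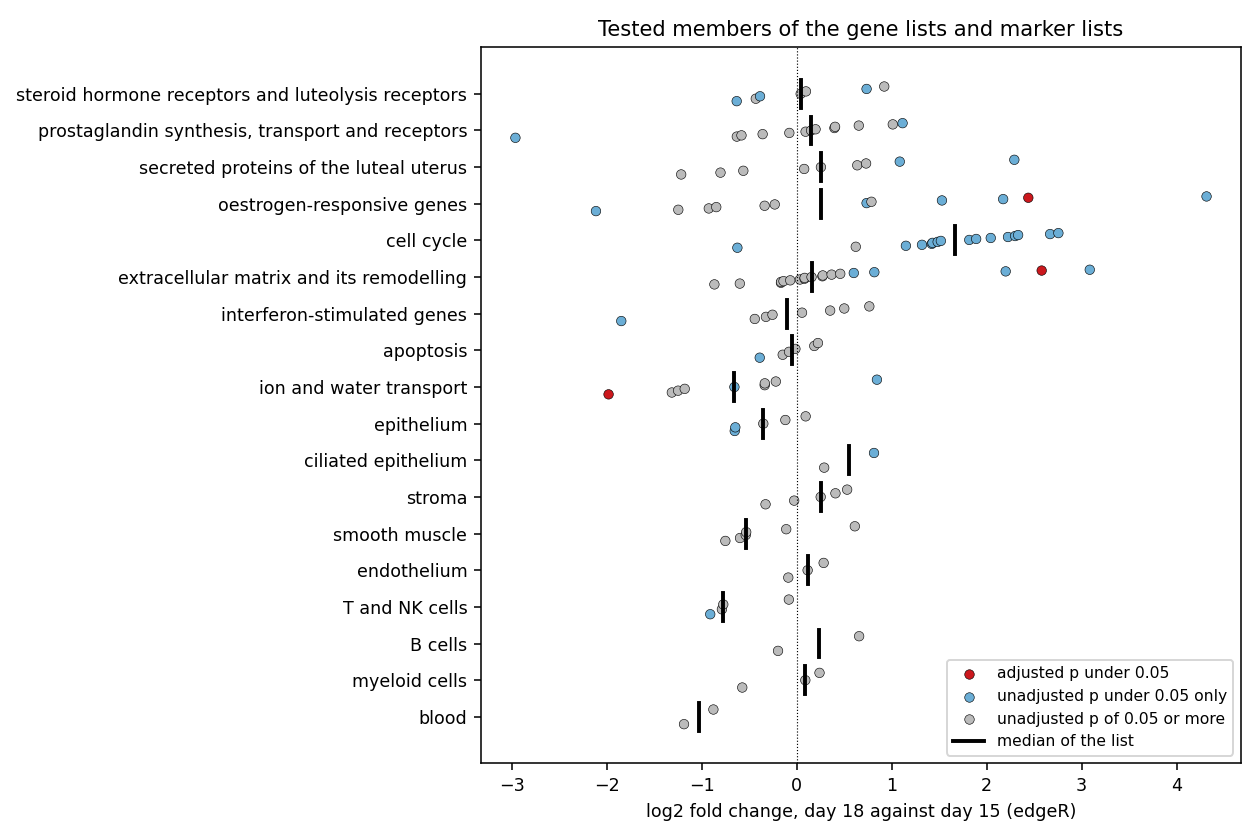
log2 FC of day 18 against day 15 for the tested members of each gene list, 1 point for each gene, in red where called, blue where only the unadjusted p was under 0.05 and grey otherwise, with the median of each list as a bar. The cell cycle list has the highest median, 1.67, and PLAT, TFF3 and SCNN1A are the DEGs among the members.

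Markers of single cell types held 0 DEGs in each of the 9 lists by edgeR, with and without the 2 libraries that stood apart, and by DESeq2, with 2 epithelial markers and 1 of T and NK cells lower and 1 ciliated marker higher at an unadjusted p under 0.05. The summed level of 5 epithelial markers was 2362 to 2798 CPM on day 15 and 1818 to 2481 CPM on day 18, and that of 5 stromal markers was 746 to 2585 CPM and 1569 to 2902 CPM. FOXJ1, the factor that makes cells ciliated, had 144 to 190 CPM on day 15 and 237 to 327 CPM on day 18, without overlap (log2 FC 0.81 ± 0.31 SE, edgeR adjusted p = 0.192). The 4 markers of T and NK cells summed to 19.2 to 26.9 CPM on day 15 and 6.26, 15.4 and 22.2 CPM on day 18. The 6 smooth muscle markers summed to 360 to 1582 CPM and 694 to 1018 CPM, the 3 endothelial ones to 197 to 603 CPM and 483 to 540 CPM, and the 2 blood ones to 15.3 to 230 CPM and 33.2 to 115 CPM. The 3 myeloid markers summed to 23.1 to 48.2 CPM and 27.1 to 33.0 CPM, and the 2 B cell ones to 2.26 to 8.24 CPM and 4.36 to 8.98 CPM. Only the ciliated pair of FOXJ1 and TEKT1 had summed levels that did not overlap between the days (157 to 205 CPM and 253 to 347 CPM). FOXJ1 made up most of that sum, and TEKT1 by itself overlapped between the days. The other ciliated markers, DNAI1, CCDC78 and RSPH1, had no paired symbol in the table of counts. The part of cell composition in the DEGs was not tested.

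The DEGs of day 18 were then followed over the rest of the cycle. The libraries of days 0 and 9 gave no level to the contrast of day 18 with day 15, but they were in the same fit and shared its estimate of spread, so that the contrasts are not independent. On day 0 against day 9, the day of oestrus against the middle of the luteal phase, 67 of the 70 genes higher on day 18 were also higher on day 0 (95.7%, against 51.7% of all genes tested) and 78 of the 85 lower genes were also lower (91.8%, against 48.3%). In that contrast edgeR called 42 of the 70 as higher on day 0 (12.5% of all genes) and 51 of the 85 as lower (12% of all genes), and none of either set in the opposite direction. The median log2 FC of day 0 against day 9 was 1.20 for the higher set and -0.85 for the lower set, beside 0.03 over all genes. The share in the same direction, 93.5% over both sets, was 75.3% (146 of 194 genes) for the genes called without library 2 of day 15, 83.3% (10 of 12) without library 2 of day 18, and 72.8% (704 of 967) without the 2 libraries that stood apart.

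Among days 0 to 12 the mean level peaked on day 0 for 36 of the 70 higher DEGs, on day 3 for 26, on day 6 for 7, on day 9 for 1 and on day 12 for 0. For the 85 lower DEGs the peak was on day 12 for 54, on day 9 for 23, on day 6 for 6 and on day 0 for 2, whereas each of these days held the peak of 18.4% to 21.9% of all tested genes. Averaged over the 70 genes, the level on the log2(CPM + 1) scale was 4.41 ± 0.13 (SD, n = 3) on day 0, 3.01 ± 0.01 (SD, n = 3) on day 12, 2.95 ± 0.14 (SD, n = 4) on day 15 and 4.27 ± 0.30 (SD, n = 3) on day 18. Over the 85 genes it was 4.41 ± 0.03, 6.04 ± 0.05, 5.87 ± 0.29 and 4.53 ± 0.26 on the same days. The values of days 15 and 18 are fixed by the choice of the genes and are given for scale. All 11 of the largest rises described had a higher mean on day 0 than on day 9 (7 called), and 11 of the 12 falls chosen in the same way had a lower one (9 called), the exception being HAP1. Over all tested genes 51.7% were higher and 48.3% lower on day 0, with 12.5% and 12% called. Some of these differences were small. TNFRSF11B, not called, averaged 0.221 and 0.104 CPM on days 0 and 9, beside 0.262 CPM on day 15. FGF14, not called, averaged 0.896 CPM on day 0, 7.05 CPM on day 6 and 8.85 CPM on day 18. LRRTM4, not called, averaged 1.27 and 1.73 CPM on days 0 and 9.

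**Figure D5:**
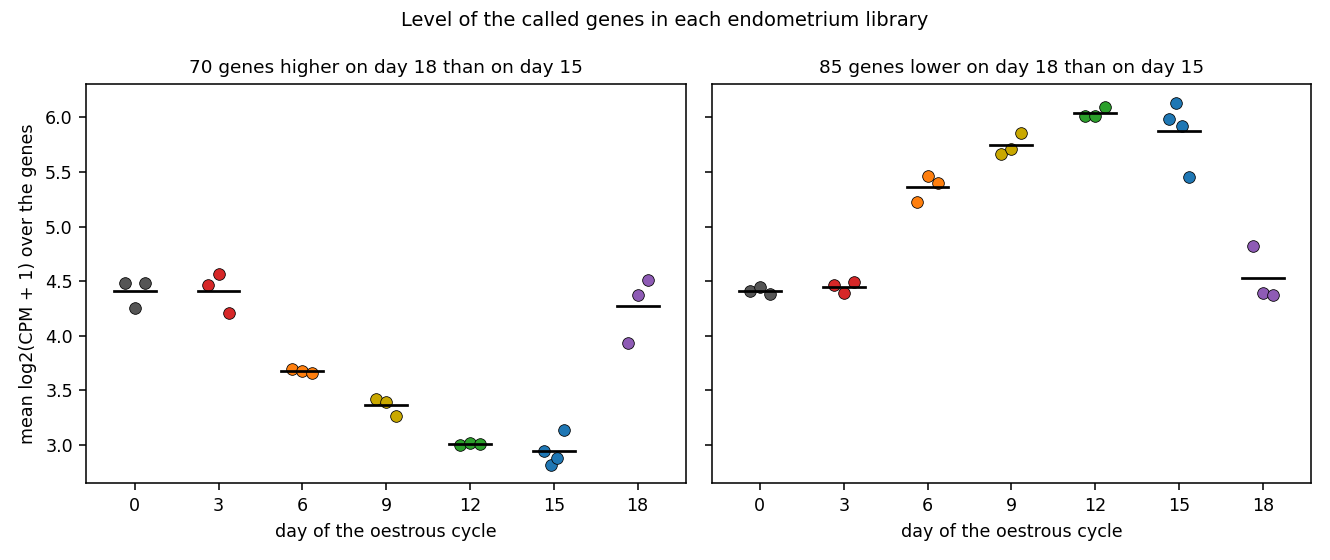
Mean log2(CPM + 1) over the 70 genes higher on day 18 (left) and the 85 genes lower on day 18 (right) in each endometrium library by day of the cycle, 1 point for each library with the day mean as a bar. The left set runs from 4.41 on day 0 to 3.01 on day 12 and the right set from 4.41 to 6.04, and days 15 and 18 chose the genes.

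The oviduct and the ovary, with 7 libraries each on these days, had few genes past the adjusted threshold over the same step. At an unadjusted p under 0.05 the endometrium had 2524 genes. In the oviduct 2 genes (0.0128%) were called by edgeR (2518 had an unadjusted p under 0.05), and in the ovary 0 (870 had an unadjusted p under 0.05). KIF3B was 1 of the 2 in the oviduct, with a log2 FC of -1.73 (edgeR adjusted p = 0.000315) beside -1.33 in the endometrium. In the ovary the log2 FC of KIF3B was -1.24 (edgeR adjusted p = 0.328). Its endometrial change minus that of the oviduct was 0.39 (edgeR adjusted p = 0.494), and minus that of the ovary -0.08 (edgeR adjusted p = 0.961). Of the endometrial DEGs tested in the oviduct, 49 of 69 higher genes (71.0%, against 47.8% of all genes) and 54 of 78 lower genes (69.2%, against 52.2%) had the same sign there, and in the ovary 33 of 65 (50.8%, against 46.7%) and 49 of 75 (65.3%, against 53.3%). The tissues came from the same gilts, and the shares over all genes do not allow for this, so the agreement was not tested.

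The difference between tissues was tested directly. The endometrial change differed from that of the oviduct for 3 of 16292 genes (0.0184%) and from that of the ovary for 3 of 16557 genes (0.0181%). PPP2R2B had a log2 FC of 2.38 in the endometrium and -0.97 in the oviduct (edgeR adjusted p = 0.199 in the oviduct), a difference of 3.35 ± 0.55 SE (edgeR adjusted p = 0.00992). SLC34A2 had a log2 FC of 4.32 in the endometrium and -3.62 in the ovary (edgeR adjusted p = 0.838 in the ovary), a difference of 7.92 ± 1.49 SE (edgeR adjusted p = 0.0427). CFTR, the epithelial chloride channel, had 53.5, 58.6, 48.7 and 157 CPM in the endometrium on day 15 and 166, 134 and 128 CPM on day 18 (log2 FC 0.84 ± 0.36 SE, edgeR adjusted p = 0.242). In the ovary its log2 FC was -3.29 (edgeR adjusted p = 0.838), a difference of 4.15 ± 0.78 SE (edgeR adjusted p = 0.0427). Without the 2 endometrial libraries that stood apart the difference was called for 322 genes against the oviduct and for 68 against the ovary, and without library 3 of day 18 for 0 in both. The tissues of a day came from the same gilts and the fit took all libraries as independent. With the library number within a day as a block shared by the tissues, 0 genes differed from the oviduct (2220 at an unadjusted p under 0.05) and 0 from the ovary (1493). The difference was then 3.39 ± 0.58 SE for PPP2R2B (edgeR adjusted p = 0.0524), 5.20 ± 1.68 SE for SLC34A2 (edgeR adjusted p = 0.459) and 4.03 ± 0.86 SE for CFTR (edgeR adjusted p = 0.366).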

How the data were processed

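Pig endometrium, ovary and oviduct of 7 days of the cycle were sequenced, and each library was placed in its tissue and day by its label. After trimming and mapping of the reads to the pig genome, the authors deposited raw whole-number counts for every Ensembl gene and library. The submitters' processing notes name FastQC, featureCounts, Cufflinks, Cuffdiff and edgeR without versions, and the authors' own tests used FPKM, which were not used here. The labels name a stranded kit and the methods a kit that does not mark strand, and the strand setting of the counting is not given in the sources used here, so overlapping genes on opposite strands were not separated. Numbers of the columns and of the labels start at different values, so columns were tied to a tissue and day and not to a single label. Symbols came from a table of Ensembl identifiers, which paired 11804 of 25322 genes.

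Counts were fitted with edgeR 4.0.16 in R 4.3.3 over all 22 endometrium libraries with day as a factor (TMM, filterByExpr, estimateDisp, robust glmQLFit and glmQLFTest). Benjamini-Hochberg adjustment ran over all genes tested, and a gene was called at an adjusted p under 0.05. Tissue differences were interaction contrasts in fits of the endometrium with the oviduct or the ovary. Standard errors were derived from the log2 FC and the F statistic. Named genes were the 12 largest rises and falls with a symbol among DEGs in which the days did not overlap and each library of the higher day had at least 10 counts, plus the called list members. Of these 12 rises 1 is not reported here. Rises were ordered by the ratio of mean CPM with means under 3 counts raised to that level. The DEGs given for their roles, from SFRP1 to RERG, and CENPF and SLC34A2 were chosen outside that rule. Fitted log2 FC of genes near 0 counts depend on edgeR's prior count, so ratios of summed counts with exact intervals were given for 3 of them. The members, lists and rules were chosen with earlier results of these data known. Same-day chi-squared statistics per degree of freedom were at least 15.9, so no libraries were merged. A run on simulated counts required only that at least 1 gene given an absolute log2 FC of 3 was called. Its libraries were drawn independently, so it did not cover libraries that stand apart or tissues of the same gilts. Alternatives were other size factors, no count filter, DESeq2 1.42.0, edgeR's likelihood ratio test, a fit of the 2 groups alone, a replicate block, and each library left out. Leaving out library 2 of day 15 and library 1 of day 18 together was chosen after seeing the data, as was a block of the library number within a day shared by the tissues. The methods took the tissues from the same gilts without tying numbers to animals. Same-numbered libraries of a day correlated in their deviations from the group means at 0.0889 to 0.309 between endometrium and oviduct (21 pairs), against -0.215 to 0.0686 for other numbers, and at -0.0364 to 0.206 between endometrium and ovary (21 pairs), against -0.229 to 0.185. Figures used Python 3.11.15 with matplotlib 3.10.9.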

Additional observations from a re-analysis of the deposited data

Results flagged for a closer look

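On day 15, 70 groups of 4 libraries were checked. They were the levels of named genes, the sums of the gene and marker lists, total counts, the first and second principal components, the mitochondrial share and the mean levels of the higher and lower DEGs. Of these groups 8 had a library far from the other 3, where chance gives about 5% of groups. The gap of that library divided by the range of the group was 0.850 for PPP2R2B, 0.843 for HTR7, 0.874 for CES3, 0.848 for RERG, 0.861 for ENTPD1, 0.859 for OPTC, 0.833 for A4GALT and 0.900 for the summed CPM of the secreted proteins of the luteal uterus. The library apart was library 2 for PPP2R2B, CES3, RERG, ENTPD1, OPTC, A4GALT and the secreted proteins, and library 4 for HTR7. The first principal component was not among the 8. All groups hold the same 4 libraries, so they are not independent and the 5% does not allow for this.

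The change from day 15 to day 18 differed between the endometrium and another tissue for 5 genes given here in edgeR's interaction test, and for 0 once the library number within a day was a block shared by the tissues. Against the oviduct, the log2 difference was 3.35 for PPP2R2B and -1.83 for ENSSSCG00000023670 (adjusted p = 0.0101 for the last). Against the ovary it was 7.92 for SLC34A2, 4.15 for CFTR and -4.82 for ENSSSCG00000025867 (adjusted p = 0.0427 for the last).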

How the results depend on the processing

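The count of 155 DEGs was 72 with no filter on low counts, 747 with DESeq2, 598 with edgeR's likelihood ratio test, 967 without the 2 libraries that stood apart, 0 to 547 when each library was left out, and 0 in a fit of the 2 days alone (1596 genes at an unadjusted p under 0.05). With DESeq2's size factors it was 156, of which 152 were shared. The share with the same direction on day 0 against day 9 was 72.8% without the 2 libraries that stood apart and 75.3% to 95.0% when each library was left out, and it had no value where 0 genes were called. The 3 genes that differed from the oviduct became 264 with DESeq2, 322 without the 2 libraries that stood apart and 0 to 169 when each library was left out. The 3 that differed from the ovary became 165, 68 and 0 to 32 in the same order, and 0 with no filter (2011 genes at an unadjusted p under 0.05). With the replicate number as a block, 332 genes were called between the days, 127 of them shared, 2 differed from the oviduct and 0 from the ovary (1828 at an unadjusted p under 0.05). The numbers did not pair the libraries of the 2 days: deviations of libraries of the same number correlated at 0.33, 0.15 and -0.09, and number 3 correlated best with number 2. The causes of these differences were not tested. With the number within a day as a block shared by the tissues, chosen after seeing the data, 0 genes differed from the oviduct (2220 at an unadjusted p under 0.05) and 0 from the ovary (1493). Of the 46 DEGs described by name, 0 reversed in direction under any alternative, 46 were called with the likelihood ratio test, 45 of the 45 with an adjusted p in DESeq2, 42 without the 2 libraries that stood apart and 0 in the fit of the 2 days alone or without library 3 of day 18. At these depths a level under 0.245 to 0.335 CPM rests on fewer than 3 counts.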
